A study of Homo sapiens with 20 samples.

Results

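ULBP1, ULBP2, ULBP3, MICA, MICB, PVR and NECTIN2 encode cell surface ligands read by natural killer cells. These 7 genes were taken by symbol from a table of 58787 Ensembl identifiers, and all 7 were found in it. The family was selected on earlier results of these data, among them the high level of ULBP1 in the high dose of Dyngo-4a. Values of the members in comparisons that use the high-dose libraries are therefore given as a description, without a test.

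The libraries were of IMR-32 cells, a human neuroblastoma line labelled as wild type. The 5 groups of 4 libraries had been treated for 24 h. They received DMSO (the solvent control), 1 µM Dyngo-4a (the low dose), 2.26 µM Dyngo-4a (the high dose), 2 nM prexasertib, or prexasertib with Dyngo-4a (the combination). Prexasertib inhibits the checkpoint kinase CHK1, and Dyngo-4a blocks dynamin, a GTPase of membrane fission. The series asks how inhibition of CHK1 and of the DNA endonuclease MUS81 act together. The labels do not state the doses inside the combination. They place every library in 1 batch and leave unstated whether separate cultures were used for each library, so a p-value measures only the spread between these libraries, which may be technical.

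Natural killer cells weigh activating against inhibitory signals from a target cell. The activating receptor NKG2D binds MICA, MICB and the ULBP proteins, which resemble MHC class I molecules and are known to appear on stressed, infected or transformed cells. The receptor DNAM-1 binds PVR (CD155) and NECTIN2 (CD112), adhesion molecules of the nectin family that are also read by the inhibitory receptor TIGIT. Neuroblastoma is known for low MHC class I, which leaves it open to attack by natural killer cells. RNA was measured here, not surface protein, and part of the control of these ligands is known to act after transcription.

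Library totals ran from 3960885 to 6537843 counts. Values are given as CPM, counts scaled to a common library size with TMM factors. A count of 0 in a library allows up to 3 counts, which is 0.47 to 0.752 CPM depending on the library, and this limit covers counting error only. Of the neuroblast markers, 9 of 10 were above 3 counts in all 20 libraries, the exception being TH. Of the natural killer and T cell markers, 6 of 10, KLRK1 (the gene of NKG2D) among them, were at 0 in all 20 libraries, and the list summed to at most 2.89 CPM. Of the fibroblast markers, 2 of 7 were above 3 counts in all 20 libraries and 4 never were. Summed fibroblast markers lay between 19 and 33.6 CPM in the high dose and between 31.9 and 59.9 CPM in the other groups. Their part in the results was not tested. In such bulk samples, fewer cells carrying a transcript and less of it per cell cannot be told apart.

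ULBP1, a lipid-anchored NKG2D ligand, was the member with the widest range between groups. It lies on chromosome 6 in a cluster of 6 ULBP and RAET1 genes that spans 186 kb, and its gene model covers 149964007 to 149973710 on the plus strand (GENCODE 29, GRCh38). The promoters of the ULBP genes and PVR are shown because ULBP1 and ULBP2 shared a motif there that ULBP3 and PVR did not hold. That choice was made after the motif search and is a description. The sequences are RefSeq's (GRCh38.p14), 5′ to 3′ on the gene's strand, from 130 to 31 bases upstream of RefSeq's start of transcription. Capitals mark TGACG, a core motif of ATF/CREB transcription factors, or its reverse complement CGTCA. The sequences cover chr6:149963813-149963912 (plus strand), chr6:149941884-149941983 (plus), chr6:150069152-150069251 (minus) and chr19:44643780-44643879 (plus) in turn. RefSeq's starts differ from those of GENCODE 29. The GENCODE model of PVR begins at 44643798, inside the PVR stretch, which is thus upstream of RefSeq's start only.
ULBP1: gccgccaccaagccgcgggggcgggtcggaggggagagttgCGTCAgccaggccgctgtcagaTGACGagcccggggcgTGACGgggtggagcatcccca
ULBP2: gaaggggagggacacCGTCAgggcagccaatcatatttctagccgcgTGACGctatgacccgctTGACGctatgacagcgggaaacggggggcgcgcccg
ULBP3: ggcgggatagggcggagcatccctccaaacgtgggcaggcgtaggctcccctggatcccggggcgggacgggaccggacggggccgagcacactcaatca
PVR: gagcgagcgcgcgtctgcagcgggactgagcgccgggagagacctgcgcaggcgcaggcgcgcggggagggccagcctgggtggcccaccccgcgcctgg

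ULBP1 held 3 such motifs, which begin 89, 67 and 51 bases upstream of the start. ULBP2 also held 3, at 115, 83 and 66 bases upstream. Over the whole 300 bases of each RefSeq promoter, from 250 before the start to 50 after it, ULBP3 and PVR held none. NECTIN2, which passed no test, held TGACG on both strands, as the palindrome TGACGTCA that was found in 1.85% of promoters. On either strand, 24.5% of 35093 promoters of that length held at least 1 TGACG. The composite element TGATGNAA, searched the same way and found in 3.62% of promoters, was present in ULBP2 and in none of the other 6 members. MICA and MICB each held 1 match to GAANNTTC, a heat shock element core found in 6.77% of promoters. The GC box GGGCGG was found in 44.9% of promoters and in 6 of the 7 members, all but PVR. These are matches of letters, not measured binding sites.

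In the DMSO libraries ULBP1 had 21, 17, 16 and 24 counts, or 4, 4.26, 3.22 and 3.84 CPM. In the low dose it had 2.81, 4.58, 3.49 and 5.82 CPM. In the high dose it had 139, 149, 107 and 180 counts, or 27.4, 26.8, 19.4 and 33.2 CPM. All 4 high-dose libraries stood above all 16 others. High-dose libraries did not overlap with those of DMSO, the low dose or the combination in 23.3%, 21% and 20.7% of all tested genes. With prexasertib alone it had 5.32, 6.52, 3.57 and 5.17 CPM, and in the combination 8.21, 7.41, 5.45 and 3.99 CPM.

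By group mean the order was the high dose (26.7 ± 5.66 CPM, SD, n = 4), the combination (6.26 ± 1.91), prexasertib (5.14 ± 1.21), the low dose (4.17 ± 1.32) and DMSO (3.83 ± 0.44). Neighbours in that order below the high dose overlapped in their libraries. The fitted log2 fold change of the high dose was 2.80 ± 0.24 (SE) against DMSO and 2.65 ± 0.24 against the low dose. The combination differed from the high dose by -2.09 ± 0.23. These 3 values are a description, since ULBP1 was put forward from the first of them. In the low dose the log2 fold change of ULBP1 against DMSO was 0.15 ± 0.28 (interval -0.46 to 0.75, adjusted p = 0.957, quasi-likelihood test of edgeR, Benjamini-Hochberg adjustment over 13729 genes).

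**Figure D1:**
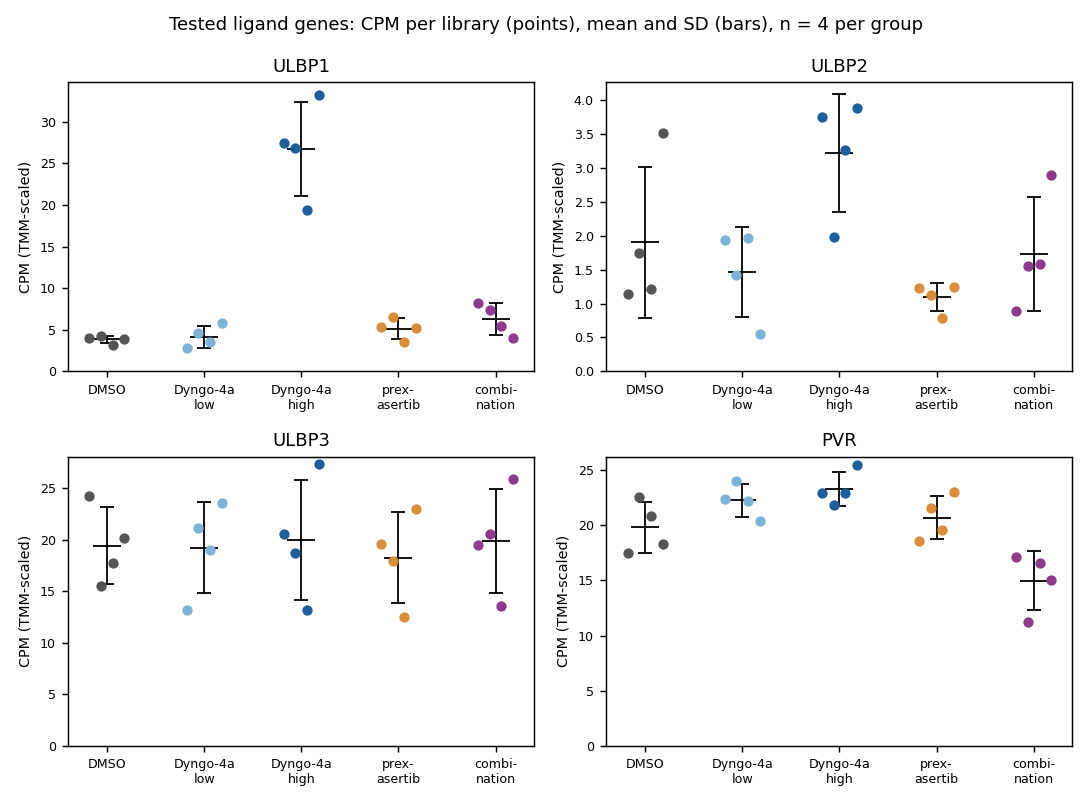
TMM-scaled CPM of the 4 members that passed the filter on low counts, by group, with 1 point per library and bars for the mean and SD of 4 libraries. The high-dose libraries of ULBP1 sit between 19.4 and 33.2 CPM above all others, ULBP3 has means of 18.3 to 19.9 CPM in all 5 groups, and the combination libraries of PVR sit between 11.2 and 17.1 CPM below all others.

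The combination did not pass the threshold for ULBP1 in any comparison that could be tested. Against DMSO its log2 fold change was 0.71 ± 0.27 (95% interval 0.13 to 1.28, adjusted p = 0.119, edgeR), with 3 of 4 combination libraries above the highest DMSO library. Over 19 alternative settings the adjusted p ran from 0.0509 to 0.606. The comparison of the combination with prexasertib alone uses none of the libraries behind the choice of ULBP1. There the log2 fold change was 0.28 ± 0.26 (interval -0.27 to 0.82, adjusted p = 0.667, edgeR). Prexasertib alone against DMSO gave 0.43 ± 0.27 (adjusted p = 1, edgeR). The interaction term, combination minus prexasertib minus low dose plus DMSO, was 0.13 ± 0.38 (adjusted p = 0.995, edgeR). It takes the low dose to stand for the Dyngo-4a in the combination. The comparisons against DMSO share the DMSO libraries with the high-dose contrast.

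ULBP2, which encodes another lipid-anchored NKG2D ligand, was low in every library. It had 6, 7, 6 and 22 counts in DMSO, 9, 9, 9 and 3 in the low dose, and 19, 11, 18 and 21 in the high dose. It had 6, 6, 4 and 8 with prexasertib and 4, 9, 7 and 16 in the combination. The group mean was 3.22 ± 0.865 CPM in the high dose and between 1.10 and 1.91 CPM in the other groups, and DMSO replicate 4 (3.52 CPM) lay inside the high-dose range of 1.98 to 3.88 CPM. High-dose and low-dose libraries did not overlap, but by the narrowest margin, 1.98 against 1.96 CPM. The log2 fold change of the high dose was 0.71 ± 0.43 against DMSO and 1.14 ± 0.45 against the low dose, again as a description. In the 6 comparisons without the high dose ULBP2 passed no test, with adjusted p between 0.565 and 1. The largest of these differences was the interaction at 1.09 ± 0.69, whose interval, -0.37 to 2.56, is wide. ULBP2 shares most of its sequence with RAET1G and RAET1L, both at 0 in all 20 libraries, so reads of near-identical copies could have been split or lost in counting.

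ULBP3, the third of the ULBP ligands, had a group mean of 19.4 ± 3.70 CPM in DMSO. The mean was 19.2 ± 4.47 CPM in the low dose and 19.9 ± 5.81 in the high dose. Prexasertib gave 18.3 ± 4.41 CPM and the combination 19.9 ± 5.04. All 9 log2 fold changes lay between -0.09 and 0.14. The interval for the combination against DMSO was -0.42 to 0.49, so changes within that range could not be seen. The libraries of a group nevertheless spread widely, in the high dose from 13.2 to 27.3 CPM. That spread went with the replicate number: replicate 4 was the highest of its group in 4 of 5 groups, with 20.2 to 27.3 CPM across the 5, and replicate 3 was the lowest in 3 of 5. The labels do not say what the replicate numbers share.

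MICA and MICB together span 111 kb of chromosome 6, in the MHC region, and encode the larger NKG2D ligands. MICA was at 0 in all 4 DMSO and all 4 combination libraries. It had 1 count in 1 low-dose library, 6 counts in 1 high-dose library, and 2, 1, 0 and 2 counts with prexasertib. MICB had 2 counts in 1 DMSO library and 1 count in 1 combination library, and was at 0 in the other 18. Summed over a group's 4 libraries, the exact 95% Poisson interval for MICA reached 0.18 CPM in DMSO, 0.606 CPM in the high dose and 0.538 CPM with prexasertib. No difference between groups was detectable at this depth. MICA and MICB are closely related paralogues, MICA is highly polymorphic, and reads that match both could have been dropped, so a low count is not a measure of absence.

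**Figure D2:**
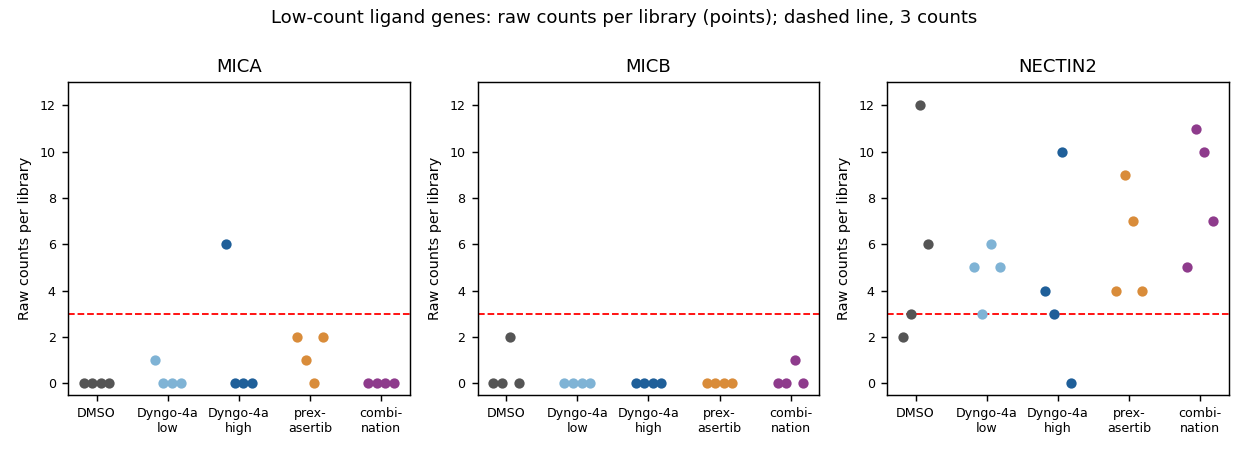
Raw counts per library of MICA, MICB and NECTIN2 by group, with a dashed line at 3 counts. MICA exceeds the line in 1 high-dose library with 6 counts, MICB never does, and NECTIN2 lies between 0 and 12 counts with overlapping groups.

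NECTIN2, the weaker of the DNAM-1 ligands in binding, was also near the detection limit. DMSO libraries had 2, 3, 12 and 6 counts, low-dose libraries 5, 3, 6 and 5, and high-dose libraries 4, 3, 10 and 0. Prexasertib libraries had 4, 9, 7 and 4 counts, and combination libraries 5, 11, 10 and 7. The group means, between 0.786 and 1.64 CPM, overlapped in their libraries. NECTIN2, MICA and MICB did not pass the filter on low counts. In a fit of 29560 genes without that filter, none of the 3 was called in the 6 comparisons that leave out the high dose. Of all genes in that fit, 0.21% were called in the low dose against DMSO and 0.0406% in prexasertib against DMSO. In the combination 3.19% were called against DMSO, 1.74% against prexasertib and 1.81% against the low dose, and 0.22% in the interaction. For NECTIN2 that fit gave 0.51 ± 0.62 for the combination against DMSO (adjusted p = 0.76, edgeR).

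PVR, the ligand that DNAM-1 binds most strongly, was the member that stood apart in the combination. It lies on chromosome 19 (44643798 to 44663583, plus strand), within 245 kb that also hold NECTIN2. It had 17.5, 22.6, 20.8 and 18.3 CPM in DMSO, and 22.4, 24.0, 22.2 and 20.4 CPM in the low dose. It had 22.9, 21.8, 22.9 and 25.5 CPM in the high dose, and 18.6, 21.6, 19.6 and 23.0 CPM with prexasertib. In the combination it had 17.1, 11.2, 16.6 and 15 CPM, from 77, 65, 73 and 83 counts. Each combination library was thus below each of the 16 others, the closest values being 17.1 and 17.5 CPM.

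The group means of PVR were, in order, 23.2 ± 1.57 CPM in the high dose, 22.3 ± 1.49 in the low dose, 20.7 ± 1.98 with prexasertib, 19.8 ± 2.32 in DMSO and 15 ± 2.66 in the combination. Neighbours above the combination overlapped. Against the low dose, PVR fell by 0.58 ± 0.15 on the log2 scale in the combination (interval -0.90 to -0.26, adjusted p = 0.0155, edgeR), a ratio of 0.668. Against prexasertib the value was -0.48 ± 0.15 (adjusted p = 0.0635, edgeR), which missed the threshold. A replicate block in the fit brought it past (adjusted p = 0.0251). The value was -0.19 (adjusted p = 0.752) with replicates 1 and 3 only, -0.77 (adjusted p = 0.129) with replicates 2 and 4 only, and -0.35 (adjusted p = 0.232) without combination replicate 2, and over 19 alternatives the adjusted p ran from 0.0251 to 0.752. Against DMSO it was -0.40 ± 0.15 (adjusted p = 0.109, edgeR) and against the high dose, as a description, -0.64 ± 0.15. The interaction was -0.66 ± 0.21 (adjusted p = 0.29, edgeR).

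The call against the low dose rested on few libraries. Without combination replicate 2, the lowest, the log2 fold change was -0.45 (adjusted p = 0.115), and without low-dose replicate 2 it was -0.53 (adjusted p = 0.0676). Over 19 alternatives the value stayed between -0.77 and -0.40, with adjusted p from 0.005 to 0.395. CEACAM19, the protein-coding gene that overlaps PVR on the same strand, had at most 4 counts in a library.

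**Figure D3:**
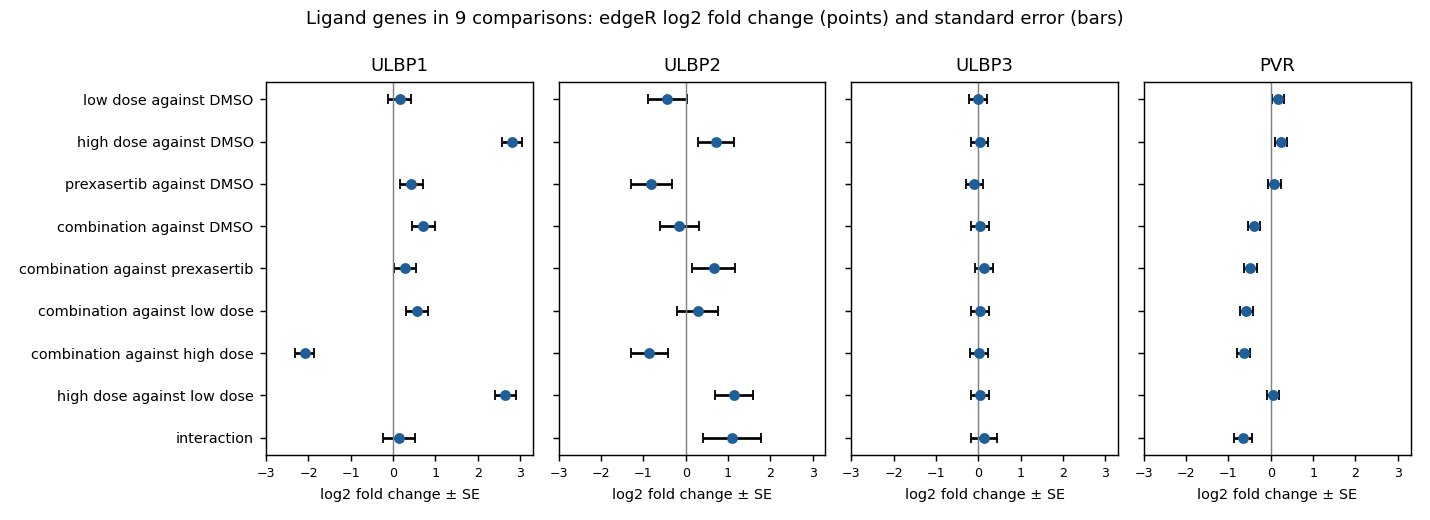
Fitted log2 fold change (points) and SE (bars) of the 4 tested members in each of 9 comparisons, on one horizontal scale. ULBP1 departs from 0 where high-dose libraries enter (2.80, 2.65 and -2.09), PVR lies below 0 in the comparisons of the combination (-0.40 to -0.66, interaction included), and ULBP3 stays between -0.09 and 0.14.

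Members called are to be read against the share of all tested genes called. In the combination against the low dose 1 of 4 tested members was called, PVR, where 3.85% of genes were called in either direction. In the combination against DMSO (6.3% of genes), the combination against prexasertib (3.44%), the low dose against DMSO (0.262%), prexasertib against DMSO (0%) and the interaction (0.284%) no member was called by edgeR. DESeq2 called PVR against prexasertib (adjusted p = 0.0384) and no other member there. At an unadjusted p under 0.05 edgeR gave ULBP1 and PVR in the combination against DMSO and against the low dose, where 19.5% and 14.8% of all genes were at that level. It gave PVR alone against prexasertib (15.7% of genes) and in the interaction (6.56%), and no member in the low dose (7.57%) or prexasertib (3.77%) against DMSO. Over all genes prexasertib alone gave 518 at that unadjusted level, and after adjustment 0 with edgeR, 0 with limma-voom and 6 with DESeq2, none of them a member. In the comparisons that bear on the choice, 1 member was called in the high dose against DMSO (25.2% of genes) and 1 against the low dose (20.2%), and 2 in the combination against the high dose (20.5%). Nothing is read from those 3 counts. Libraries of the combination did not overlap with those of DMSO, prexasertib or the low dose in 10.9%, 9.86% and 9.09% of tested genes, and among the members this held for PVR alone.

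Over 20 libraries, Pearson's r of log2 CPM between pairs of tested members ran from -0.0963 (ULBP3 and PVR) to 0.485 (ULBP1 and ULBP2). Between ULBP1 and PVR it was 0.262. Over the 16 libraries without the high dose, ULBP1 had r of -0.4 with ULBP2 and -0.431 with PVR. ULBP1 and ULBP3 had r of 0.191 over the 20 libraries and 0.287 over the 16. These are descriptions over libraries that share groups and depth, and the low counts of ULBP2 limit what its correlations can show.

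The 5 genes whose pattern was most like that of ULBP1 were sought among 12926 tested genes with a symbol, by Pearson's r of log2 CPM over 20 libraries. They were CCDC174 (r = 0.963), which encodes a coiled-coil protein, and CHAC1 (0.954), which encodes an enzyme that degrades glutathione. Then came INHBE (0.946), a subunit of activin, CARS1 (0.931), which charges tRNA with cysteine, and FOXC1 (0.93), a forkhead transcription factor. CHAC1 went from a mean of 3.47 CPM in DMSO to 30.6 CPM in the high dose, and INHBE from 5.22 to 30.4 CPM, beside ULBP1 at 3.83 and 26.7. CARS1 went from 75.5 to 145 CPM and CCDC174 from 60.7 to 110 CPM. The likeness rested largely on the high-dose group: over the other 16 libraries r was 0.693 for CCDC174, 0.748 for CHAC1, 0.491 for INHBE, 0.342 for CARS1 and 0.625 for FOXC1. By Spearman's rho, only CHAC1 of the 5 was again among the closest 5. In the combination CHAC1 had 6.44 to 7.94 CPM, against 2.76 to 3.83 CPM in DMSO. Of the 4 genes with a promoter in the RefSeq table, 3 held TGACG and 2 the composite TGATGNAA. The shares of single promoters were 24.5% and 3.62%. CARS1, however, was counted over 2 promoters, with TGACG and the composite in different ones. As the genes were picked by their likeness to ULBP1, these counts are a description.

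**Figure D4:**
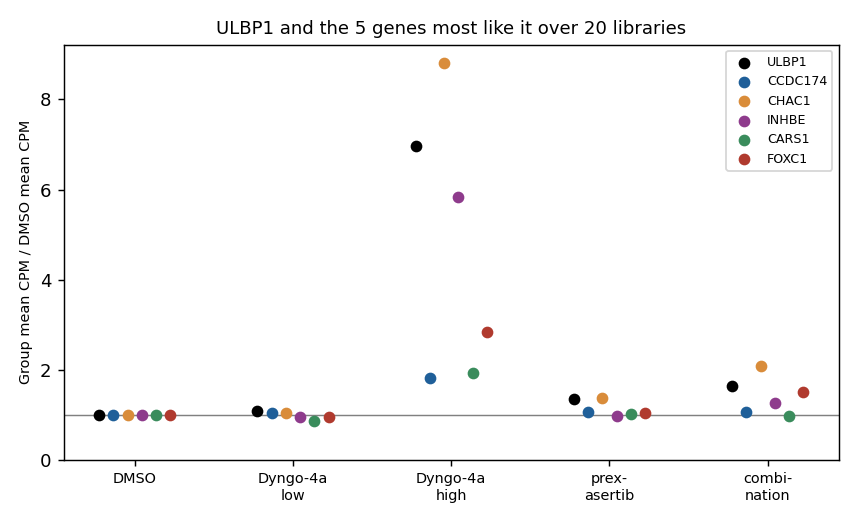
Mean CPM of each group divided by the mean CPM of DMSO, for ULBP1 and the 5 genes most like it over 20 libraries, with a grey line at the DMSO level. ULBP1 stands at 6.97 times the DMSO mean in the high dose, with 1.64 times for the combination, and the other genes also have their highest ratio in the high dose.

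For the other tested members the closest genes were RAB3C (r = 0.848), TMEM254 (0.83) and PCAT7 (0.794) for ULBP2, and SLC10A4 (0.812), CLU (0.769) and HLF (0.722) for ULBP3. For PVR they were CAMK1D (0.844), SRSF12 (0.82) and TBL1XR1 (0.819). Without the high-dose libraries CAMK1D kept r = 0.827 with PVR.

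Beside the members, 8 lists of genes of the same interaction were counted. The remaining NKG2D ligands RAET1E, RAET1G and RAET1L had 1 count in all 20 libraries together. Of the nectin and nectin-like relatives of PVR, all 7 were tested and 1, NECTIN4, was called higher in the combination against DMSO, with a list median of 0.35 log2 beside 0 for all genes. The share of all tested genes called higher there was 3.47%. NECTIN4, an adhesion protein that TIGIT is reported to bind, had 9, 0, 2 and 5 counts in DMSO and 31, 29, 31 and 24 in the combination. Its log2 fold change was 2.87 ± 0.46 against DMSO (adjusted p = 4.1e-05, edgeR) and 1.86 ± 0.41 against prexasertib (adjusted p = 0.00457). The high dose alone was also higher than DMSO, by 2.25 ± 0.48 (adjusted p = 0.000508, edgeR), with means of 3.75 and 0.729 CPM. The combination against the high dose gave 0.62 ± 0.37 (adjusted p = 0.253) and the interaction 0.46 ± 0.70 (adjusted p = 0.989), and neither passed in any alternative run.

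Among death receptors and their adaptors, 4 of 8 genes were tested, and in the combination 2 rose against DMSO and against prexasertib. The shares of all tested genes called higher in these comparisons were 3.47% and 2.4%. FAS, the receptor for the Fas ligand of natural killer cells, had 1.52, 2.01, 1.01 and 0.48 CPM in DMSO and 7.55, 4.31, 5.22 and 7.62 CPM in the combination. Its log2 fold change was 2.34 ± 0.41 against DMSO (adjusted p = 0.000121, edgeR) and 1.97 ± 0.38 against prexasertib (adjusted p = 0.00109). TNFRSF10B, a receptor for the death ligand TRAIL, had 28.3 to 37.5 CPM in DMSO, 30.5 to 39.8 CPM with prexasertib and 56.2 to 65.4 CPM in the combination. It rose by 0.86 ± 0.12 (adjusted p = 1.62e-06, edgeR) against DMSO and 0.73 ± 0.11 (adjusted p = 4.06e-05) against prexasertib. Both were also higher in the high dose than in DMSO, FAS by 1.47 ± 0.42 (adjusted p = 0.00895, edgeR) and TNFRSF10B by 0.49 ± 0.12 (adjusted p = 0.00184). The call for FAS was lost without DMSO replicate 4 (adjusted p = 0.0542) or high-dose replicate 1 (adjusted p = 0.057). Of the 4 tested genes, 2 were called higher in the high dose and 1 lower, beside 12.5% and 12.7% of all tested genes. The lower gene was the adaptor FADD, at -0.48 ± 0.15 (adjusted p = 0.0133, edgeR). CASP8, on the same list but not tested, had at most 6 counts in a library. In the combination against the high dose FAS stood at 0.87 ± 0.35 (adjusted p = 0.0745, edgeR), and TNFRSF10B rose by 0.37 ± 0.11 (adjusted p = 0.0159), a call kept in 13 of 19 alternatives. The interaction passed for neither gene, with adjusted p = 0.522 for FAS and 0.7 for TNFRSF10B.

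**Figure D5:**
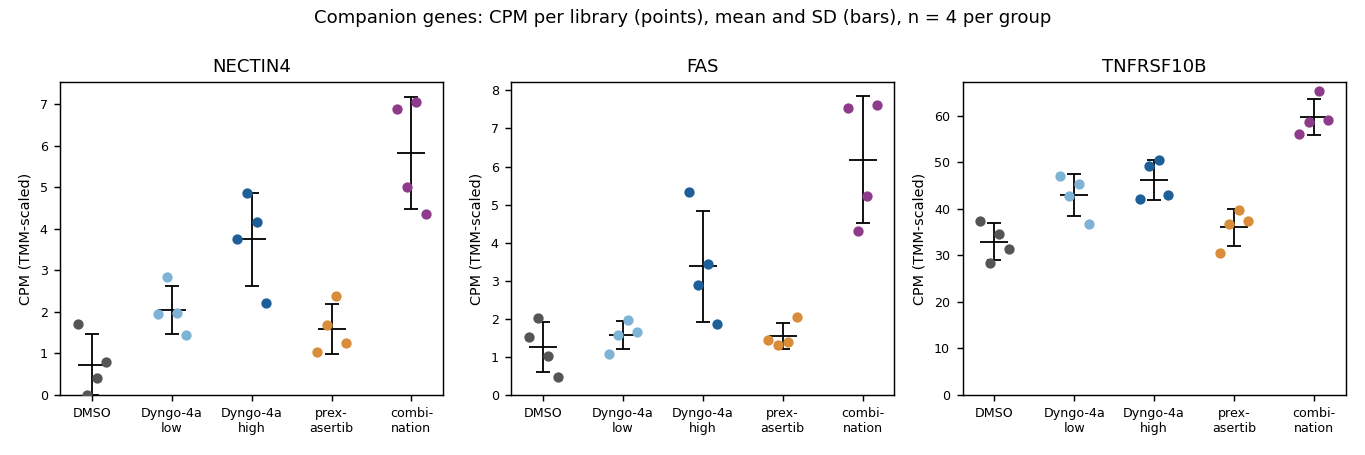
TMM-scaled CPM of NECTIN4, FAS and TNFRSF10B by group, with 1 point per library and bars for the mean and SD of 4 libraries. In the combination, TNFRSF10B has 56.2 to 65.4 CPM, above all other libraries, and NECTIN4 and FAS lie above all DMSO and prexasertib libraries.

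The inhibitory side was low. Of 15 genes of MHC class I and its loading, 6 were tested and none was called in the combination against DMSO or prexasertib (list medians 0.09 and -0.01). B2M, the light chain of class I, had 236 to 349 CPM in DMSO and 216 to 247 CPM in the high dose. HLA-B, HLA-C and HLA-E were at 0 in all DMSO libraries and never above 4 counts. As HLA genes are polymorphic and closely related, their reads could also have been lost in counting. None of the 5 tested genes among other inhibitory ligands, of the 5 among other activating and adhesion ligands, or of the 6 among proteases and helpers of ligand shedding was called by edgeR in the combination against DMSO or prexasertib. At an unadjusted p under 0.05 each of these 3 lists, like that of class I, had 0 or 1 gene in either comparison.

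Of 16 regulators tied to ligand genes, all were tested. In the combination against DMSO 1 rose and 4 fell, with a list median of -0.11. Of all tested genes, 3.47% were called higher in that comparison and 2.83% lower. STAT3, a signal-dependent transcription factor, rose by 0.54 ± 0.09 (adjusted p = 0.000161, edgeR). E2F1, which drives entry into S phase, fell by 0.60 ± 0.09 (adjusted p = 1.61e-05), MYCN, the amplified oncogene of IMR-32, fell by 0.44 ± 0.09 (adjusted p = 0.00159), and E2F2 fell by 0.73 ± 0.17 (adjusted p = 0.00456). In the high dose against DMSO 7 of the 16 were called higher and 3 lower. Of all tested genes, 12.5% were called higher there and 12.7% lower. MYCN fell by 0.48 ± 0.09 in the high dose (adjusted p = 0.000156, edgeR) and E2F1 by 0.25 ± 0.09 (adjusted p = 0.0392). STAT3 rose by 0.31 ± 0.09 (adjusted p = 0.013), and E2F2 was not called (adjusted p = 0.396). The E2F1 call was kept in 9 of 19 alternatives and that of STAT3 in 16. In the combination against the high dose E2F1 and E2F2 were lower (adjusted p = 0.00546 and 0.0225, edgeR). MYCN and STAT3 were not called there (adjusted p = 0.817 and 0.0865). ATF4, a stress-response factor known to activate ULBP1, is named after its values were seen. It had 467 to 625 CPM in the high dose, 230 to 318 CPM in DMSO and 286 to 303 CPM in the combination. Relative to DMSO the log2 fold change of ATF4 was 0.95 ± 0.10 in the high dose, and the combination gave 0.05 ± 0.10 (adjusted p = 0.848, edgeR).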

How the data were processed

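RNA of 20 libraries was measured by QuantSeq 3′ sequencing with molecular barcodes, per the labels' protocols. The deposited values are raw counts per Ensembl gene in GRCh38. The submitters' processing notes name limma 3.50.3, edgeR 3.36.0, STAR 2.7.2b and FastQC 0.11.7. Settings for annotation, strand, counting and collapsing of barcodes were not given in the sources used here. A 3′ count is not comparable between genes.

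The counts were fitted with edgeR 4.0.16 (R 4.3.3) in one robust quasi-likelihood model over all 20 libraries, with TMM scaling, filterByExpr (minimum count 10, minimum total 15, leaving 13729 genes), a term per group and Benjamini-Hochberg adjustment within each of 9 comparisons, at a threshold of 0.05. Log2 CPM used a prior count of 2. DESeq2 1.42.0 and limma-voom (limma 3.58.1) were alternatives. The script was tested on simulated data. Coordinates came from GENCODE 29, which held 58515 of 58787 identifiers, and all 7 members had a RefSeq promoter.

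The members and lists were chosen with earlier results of these data known. Named were the members, the 5 genes most like ULBP1 and 3 most like each other tested member, and up to 4 called genes per list by smallest p in the combination against DMSO or prexasertib. HLA-B, HLA-C, HLA-E, B2M, RAET1 genes, FADD, CASP8 and ATF4 are named outside that rule. No library was a copy of another (chi-square per degree of freedom 3.01 to 8.46 within groups). Replicate numbers come from the titles. Every same-numbered pair deviated together (r above 0.1) in 6 of 8 pairwise comparisons, which include the combination against prexasertib and against the low dose. The exceptions were the high dose and the combination against DMSO, with lowest r of 0.0271 and 0.0274.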

Additional observations from a re-analysis of the deposited data

Results flagged for a closer look

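In all, 4 values, each from a handful of counts, stood apart from the other libraries of their group by Dixon's criterion at the 95% level. MICA had 0.216 CPM (1 count) in low-dose replicate 1 and 1.18 CPM (6 counts) in high-dose replicate 1. MICB had 0.403 CPM (2 counts) in DMSO replicate 3 and 0.227 CPM (1 count) in combination replicate 3. The other libraries of those groups were at 0. With 3 of 4 libraries at 0, any count in the other meets this criterion, so these values carry no weight as outliers.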

How the results depend on the processing

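No called value changed direction under any alternative run. The number of members called in the combination against prexasertib was 0, and 1 (PVR) with DESeq2, with the replicate block, and with a term for replicates 1 and 3 against 2 and 4. In the high dose against the low dose it was 2 with limma-voom. In the combination against the low dose it was 0 with replicates 1 and 3 only and 0 with replicates 2 and 4 only, and in the combination against the high dose it was 1 with replicates 1 and 3 only. Leaving out each library in turn gave 0 to 1 members in the combination against the low dose and 1 to 2 in the high dose against the low dose. The replicate block changed no other call of a member.

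Over all genes, the block moved the calls from 36 to 260 in the low dose against DMSO, from 0 to 23 in prexasertib against DMSO, from 865 to 1976 in the combination against DMSO, from 472 to 1374 against prexasertib and from 528 to 1149 against the low dose, and from 39 to 167 in the interaction. Without the filter on low counts, prexasertib called 12 genes, the low dose 62 and the interaction 65. DESeq2 called 72 in the interaction. With replicates 2 and 4 only, the combination called 221 genes against DMSO. With those replicates 3 companion genes missed the threshold against DMSO, FAS (2.38, adjusted p = 0.0519), MYCN (-0.42, adjusted p = 0.0668) and E2F2 (-0.64, adjusted p = 0.188). Against prexasertib NECTIN4 (1.67, adjusted p = 0.311), FAS (1.80, adjusted p = 0.192), E2F1 (-0.35, adjusted p = 0.317) and STAT3 (0.38, adjusted p = 0.171) did so. Depth limits ULBP2, NECTIN2, MICA and MICB most.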
